A study of Gallus gallus with 48 samples.

Results

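The effect of cycloheximide (CHX) on cells given corticosterone (CORT) for 1.5 h was described across all named genes of a chicken cDNA array. Members were chosen by sample title alone. The 4 arrays of cells given CHX for 1.5 h and then CORT for 1.5 h were set against the 4 arrays of cells given CORT for 1.5 h with no CHX, which makes 8 of the 48 arrays of the series. All 8 came from primary anterior pituitary cells of chicken embryos at embryonic day 11. The glands had been dispersed with trypsin, plated on poly-L-lysine and kept in serum-free medium with bovine serum albumin, insulin, transferrin, penicillin and streptomycin. CHX was used at 10 micrograms per ml and CORT at 1e-09 M. The other groups were untreated cells, cells given CHX alone for 1.5 h, and cells given CORT for 3 h, 6 h, 12 h or 24 h with or without the same CHX step, 4 arrays each and 12 groups in all.

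Several features of the design bear on every value below. Cells of the CHX-then-CORT group had spent 3 h under treatment and those of the CORT group 1.5 h. CHX and the longer time under treatment therefore cannot be told apart. Whether the time in culture differed as well cannot be read from the sample titles. Whether CHX stayed in the medium during CORT is not stated. The replicates are called biological, but whether they came from separate dispersions is not stated, and the p-values below then speak only of the spread between these cultures, which may be technical. The number of embryos behind a culture is not given in the sources used here. Values are ratios to a pool of the same 48 RNA samples and carry no absolute level, so that the presence of pituitary markers could not be checked from them.

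CHX stops translation at the elongating ribosome. Transcripts of immediate-early genes, which encode short-lived transcription factors and signalling inhibitors, are known to build up under such a block, because labile repressors are no longer replaced and decay that is coupled to translation slows. CORT is the main glucocorticoid of birds and acts through the nuclear receptors NR3C1 and NR3C2, and CHX is commonly used to separate steroid responses that need new protein from those that do not. In the chicken embryo, glucocorticoids are known to bring forward the appearance of growth hormone cells.

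Each array measured 15314 to 16374 of 19200 probes, and the log2 ratios of an array had a median between -0.03 and 0.05 and an SD between 0.315 and 0.322. The 8 arrays were not alike. Replicate 1 of the CHX-then-CORT group stood apart, with correlations over complete features of -0.587 to 0.036 with the other 7 arrays. Pairs within the CHX-then-CORT group correlated between -0.556 and 0.497, and pairs within the CORT group between 0.157 and 0.628. The first principal component of the 48 arrays held 41.5% of the spread and scored that array at -30.1, while the group means were 0.387 with CHX and 9.55 without it. Over all groups the mean score was -20.7 for replicate number 1, 6.11 for 2, 0.324 for 3 and 14.3 for 4. The labels place every sample in Cy3 and the pool in Cy5, so no array was turned, although array pairs correlated down to -0.759. The ratios were taken to be sample over pool, which is likely but not stated. FKBP5, a classical glucocorticoid target, was 0.65 ± 0.20 (log2, SE, 4 arrays a group) above untreated cells after CORT in this reading. That difference is given without an adjusted p and is not counted as a call. It did not pass the threshold and does not settle the direction of the ratios. With the sign turned, the 33 higher and 11 lower features below would be 11 higher and 33 lower.

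After CHX, cells given CORT for 1.5 h had higher levels of transcripts of the transcription factors JUN and ATF4, of the NF-kB inhibitor NFKBIA, of the MAP kinase phosphatase DUSP16 and of the guanine nucleotide exchange factor PLEKHG1, by 1.82-fold to 2.78-fold. Averaged over the probes of each name, HSPA8, MGEA5, AKR1B10 and SYDE2 were 3.24-fold to 9.38-fold lower, and HN1 was 2.7-fold lower. The probes of a name did not all fall alike. The log2 differences were -3.32 and -0.07 for the SYDE2 probes and -3.24 and -0.57 for the AKR1B10 probes. Of 11195 features tested, 44 passed an adjusted p of 0.05 in limma's moderated test over all 48 arrays (0.393%), 33 higher (0.295%) and 11 lower (0.0983%) after CHX. Among the 5632 named genes, 24 passed (0.426%), 17 higher (0.302%) and 7 lower (0.124%). At an unadjusted p below 0.05 there were 10.6% of features, 6.57% higher and 3.98% lower. Only 15 of the 44 features, 8 of them named, differed at least 2-fold. Fewer cells of a type and less RNA per cell cannot be told apart in such bulk RNA.

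The 8 arrays behind the count were unequal in weight. With the replicate number as a block in the fit, 186 features passed (1.66%), 109 higher (0.974%) and 77 lower (0.688%). These held all 44 features and 91 named genes (1.62%), 67 more than without the block. Of single arrays left out, replicate 3 mattered most. Without replicate 3 of the CHX-then-CORT group 2 features passed, and without replicate 3 of the CORT group 7 passed. Leaving out replicate 4 of the CHX-then-CORT group gave 14, replicate 1 of the CORT group 10 and replicate 2 of the CORT group 21. Without replicate 1 of the CHX-then-CORT group, the array that stood apart among the 8, 58 passed and 36 of the 44 were among them. The number of the 24 named genes that still passed was 19, 11, 1 and 6 without replicates 1 to 4 of the CHX-then-CORT group, and 5, 10, 4 and 14 without replicates 1 to 4 of the CORT group. All 24 kept their direction in each of these 8 fits. With only the 8 arrays in the fit, the spread is left to be estimated from 2 groups. HSPA8, MGEA5, AKR1B10 and SYDE2 then passed and the other 20 did not (limma adjusted p 0.0787 to 0.369). Among the 20 were all 17 higher genes (limma adjusted p 0.141 to 0.369).

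The whole distribution moved little. The median difference over all features was 0.02 on the log2 scale, with quartiles of -0.11 and 0.14, and 53.6% of features lay above 0. The values of the 2 groups did not overlap for 570 features (5.09%), and for 40 of the 44 that passed. Among the 24 named genes, DUSP16 was the 1 whose groups overlapped.

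JUN encodes the c-Jun subunit of the transcription factor AP-1 and is a textbook immediate-early gene. Its log2 ratios to the pool in the CORT group were -0.44, -0.34, -1.25 and -0.47 for replicates 1 to 4, and in the CHX-then-CORT group -0.14, 1.09, 1.29 and 1.15. The groups did not overlap, although replicate 1 with CHX lay close to the CORT arrays and replicate 3 with CORT lay below the others. The difference was 1.47 on the log2 scale (SE 0.31, limma adjusted p = 0.0183), a 2.78-fold rise. The 3 JUN probes gave log2 differences of 1.96, 1.86 and 0.60, and the first of these passed when probes were tested singly. The call was lost without replicate 2, 3 or 4 of the CHX-then-CORT group or replicate 1 or 3 of the CORT group, with differences of 1.26 to 1.80 and adjusted p-values up to 0.134 over the 8 fits that left out 1 array.

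ATF4, the transcription factor through which cells respond to amino acid shortage and other stresses that slow translation, stood at -0.63, -0.51, -0.53 and -0.27 in the CORT group and at -0.08, 0.45, 0.44 and 0.69 in the CHX-then-CORT group. Every array with CHX lay above every array without it. The log2 difference was 0.86 (SE 0.19, limma adjusted p = 0.0313). Its 2 probes differed in size, with log2 differences of 1.54 and 0.18, and their profiles over the 48 arrays correlated at 0.612. The ATF4 call held without replicate 1 of the CHX-then-CORT group and without replicate 4 of the CORT group, and was lost without any other of the 8 arrays, with adjusted p-values up to 0.125.

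NFKBIA encodes IkB alpha, which holds NF-kB in the cytoplasm and is itself quickly resynthesised. It was read by 1 probe at -0.75, -0.73, -1.43 and -0.74 in the CORT group and at -0.24, 0.16, 0.42 and 0.58 in the CHX-then-CORT group, with no overlap. The log2 difference was 1.14 (SE 0.28, 95% confidence interval 0.58 to 1.70, limma adjusted p = 0.0473). This was the largest adjusted p of the 24, and of the 8 arrays only replicate 1 of the CHX-then-CORT group could be left out with the call kept (adjusted p up to 0.2).

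DUSP16, a phosphatase that switches off the JNK and p38 kinases, had log2 ratios of -0.19, -0.12, -0.50 and -0.01 in the CORT group. With CHX they were -0.14, 0.72, 1.38 and 0.86, so that replicate 1 fell among the CORT arrays. The log2 difference was 0.91 (SE 0.21, limma adjusted p = 0.0402) and 1.19 without that array. The 2 probes tested singly gave 0.86 and 0.77, both below the 0.91 of the gene, and neither passed. A gene value averages all probes with a value on an array, also any with too few values to be tested singly. It can therefore lie outside the range of the probes tested. Which probes or arrays made it do so for DUSP16 was not resolved. The call was lost without replicate 2, 3 or 4 of the CHX-then-CORT group or replicate 1, 2 or 3 of the CORT group, with adjusted p-values up to 0.247.

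PLEKHG1 carries a pleckstrin homology domain and is a guanine nucleotide exchange factor for small GTPases. It had the smallest adjusted p of all features tested. Its values were -0.71, -0.42, -0.78 and -0.25 in the CORT group and 0.03, 0.96, 0.55 and 0.49 in the CHX-then-CORT group. The log2 difference was 1.05 (SE 0.15, limma adjusted p = 0.000371), with a 95% confidence interval of 0.74 to 1.36. Its call held without any 1 of the 8 arrays, with differences of 0.90 to 1.21 and adjusted p-values up to 0.00862, and the other 23 named genes each lost theirs without at least 1. The PLEKHG1 call was lost with only the 8 arrays in the fit (adjusted p = 0.141) and without all arrays of replicate number 3 (adjusted p = 0.104).

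The other higher genes are given one by one, in an order of known roles chosen after the calls, and no list stands behind that order. STMN4, a stathmin-family protein that binds tubulin, went from -0.48, -0.31, -0.42 and -0.05 in the CORT group to 0.00, 0.31, 0.51 and 0.40 with CHX, a log2 difference of 0.62 (SE 0.11, limma adjusted p = 0.00498). Its call was lost without replicate 3 of the CHX-then-CORT group, at an adjusted p of 0.0607. Tested singly, 1 STMN4 probe gave 0.97 (limma adjusted p = 0.00696), above the mean over its probes. ARHGEF4, an exchange factor for Rac1 and Cdc42, rose by 0.57 (adjusted p = 0.0425). NCKIPSD, an SH3-domain protein that binds the adaptor Nck, rose by 0.48 (adjusted p = 0.0402), a mean that rested on 1 of its probes. That probe gave a log2 difference of 1.86, and the others that could be tested gave 0.27 and -0.34. Of the 8 fits that left out 1 array, ARHGEF4 passed in 2 and NCKIPSD in 1.

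PARK2, the ligase parkin of mitochondrial quality control, lay at -0.39, -0.32, -0.33 and -0.23 in the CORT group and at 0.01, 0.21, 0.38 and 0.36 with CHX. Its log2 difference was 0.56 (SE 0.10, limma adjusted p = 0.00498), and without replicate 3 of the CHX-then-CORT group its adjusted p was 0.0514. WWP2, a HECT-type ligase, rose by 0.50, and TRIM35, a RING-type ligase, by 0.40, both with an adjusted p of 0.0425. For WWP2, 1 probe tested singly gave 0.71 (limma adjusted p = 0.0624). Over the settings tried the WWP2 difference ran from 0.29 to 0.55, and its call was lost with the probe of most values. TRIM35 lost its call without any 1 of the 8 arrays (adjusted p 0.058 to 0.128), and WWP2 kept it only without replicate 2 of the CHX-then-CORT group.

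CPSF4, a subunit of the complex that cleaves and polyadenylates pre-mRNA, rose by 0.71 on the log2 scale (adjusted p = 0.0425). MED16, a subunit of the Mediator complex, rose by 0.49 (adjusted p = 0.0450). Of the 3 MED16 probes, 2 gave 0.74 each and the third -0.02. STX10, a SNARE protein of the trans-Golgi network, rose by 0.65 (SE 0.13, adjusted p = 0.00968), from -0.45, -0.31, -0.56 and -0.16 to 0.18, 0.19, 0.55 and 0.16. NARFL, which takes part in cytosolic iron-sulfur cluster assembly, rose by 0.68 (adjusted p = 0.0402). The other 2 higher genes were ACYP1, an acylphosphatase, at 0.41 (adjusted p = 0.0368) and TCP11X2 at 0.77 (adjusted p = 0.0450). Of the 8 fits that left out 1 array, STX10 passed in 5, CPSF4, NARFL and ACYP1 in 2, MED16 in 1 and TCP11X2 in 0.

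**Figure D1:**
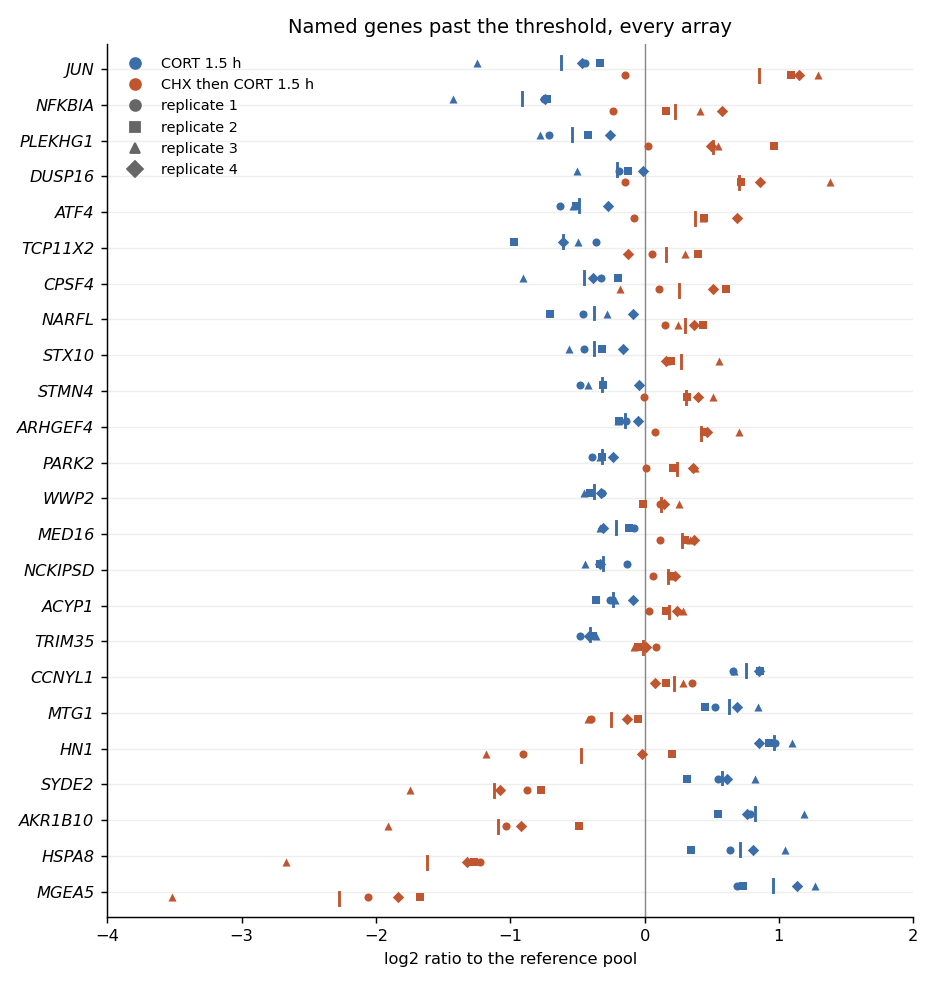
Log2 ratio to the reference pool (x axis) of the 24 named genes past the threshold (y axis, ordered by difference) on each of the 8 arrays, with blue for CORT 1.5 h, red for CHX then CORT 1.5 h, 1 marker shape per replicate number and short vertical lines for group means of 4 arrays. DUSP16 is the gene whose groups overlap, and replicate 1 is the lowest CHX-then-CORT array for 12 of the 17 higher genes, a count not made over all features.

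The position of single arrays and of the pool was also described for these genes. Replicate 1 was the lowest of the 4 CHX-then-CORT arrays for 12 of the 17 higher genes, and replicate 3 was the lowest for 6 of the 7 lower genes. Neither these counts nor those of the spread below were made over all features. The strongest probes of 4 of the 7 lower names had nearly the same profile, so the 7 are not separate observations. All 17 higher genes had a mean below the pool in the CORT group, and 16 had a mean above it in the CHX-then-CORT group. The 7 lower genes had means above the pool in the CORT group, and 6 had means below it with CHX. Genes chosen by the difference between these groups tend to lie on opposite sides of such a pool. These counts therefore follow in part from the choice. Untreated cells lay on the same side of the pool as the CORT group for all 24. The plot of the named genes on every array shows the spread, which was wider with CHX than without it for 12 of the 17 higher genes and for all 7 lower genes.

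The lower genes were led by 4 names whose strongest probes had nearly the same profile. HSPA8 encodes Hsc70, the constitutive cytosolic chaperone of the Hsp70 family, and was read by 3 probes. Its mean over them was 0.63, 0.35, 1.04 and 0.81 in the CORT group and -1.23, -1.27, -2.67 and -1.32 in the CHX-then-CORT group. The groups were far apart, and replicate 3 was the highest array without CHX and the lowest with it. The log2 difference was -2.33 (SE 0.51, limma adjusted p = 0.0226), 5.02-fold lower after CHX. MGEA5, which encodes the enzyme that removes O-linked N-acetylglucosamine from proteins, was read by 1 probe at 0.69, 0.73, 1.27 and 1.13 and at -2.06, -1.67, -3.52 and -1.83. Its log2 difference of -3.23 (SE 0.62, limma adjusted p = 0.00821) was the largest in size of all features tested.

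The strongest probes named HSPA8, SYDE2, AKR1B10 and MGEA5 gave log2 differences of -3.46, -3.32, -3.24 and -3.23. Over the 48 arrays the 6 pairs of these 4 probes correlated between 0.987 and 0.995. Of the 14061 other probes tested, 5 correlated above 0.95 with the strongest HSPA8 probe, namely these 3 and the other 2 HSPA8 probes. The correlations are given as a description without a p, and the probes were looked at together after their values had been seen. The second SYDE2 probe gave a difference of -0.07 and correlated at -0.364 with the first. The second AKR1B10 probe gave -0.57 and correlated at 0.678. The other HSPA8 probes gave -2.003 and -1.52, and neither passed when tested singly (limma adjusted p = 0.0624 for each). The HSPA8 call was also lost with the probe of most values. SYDE2 (a GTPase-activating protein, log2 difference -1.69, adjusted p = 0.00498) and AKR1B10 (an aldo-keto reductase, -1.91, adjusted p = 0.0188) are therefore names of uncertain probes, as is MGEA5. Whether these probes read HSPA8 transcripts was not tested, since no probe sequences were used here.

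**Figure D2:**
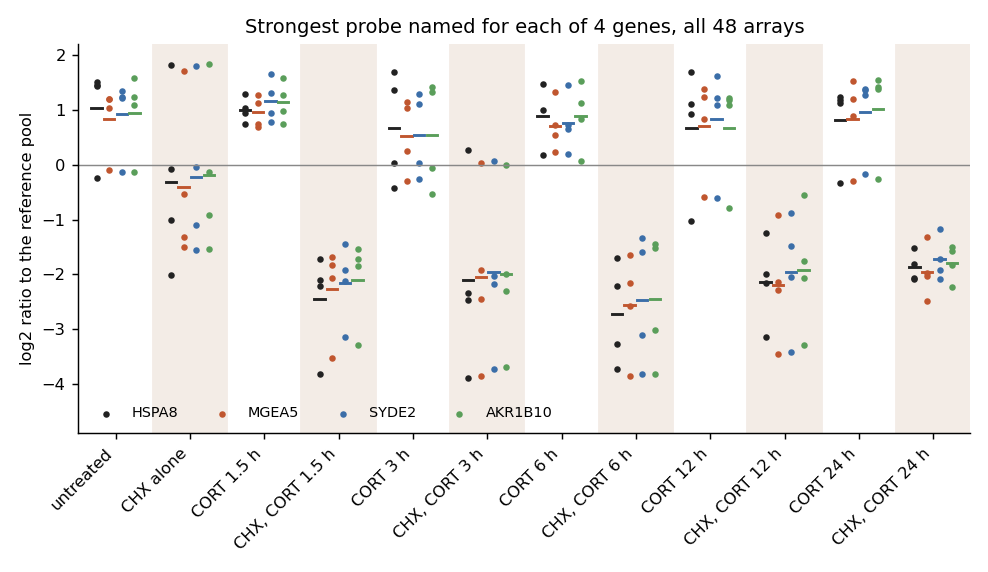
Log2 ratio to the reference pool (y axis) of the strongest probe named HSPA8, MGEA5, SYDE2 and AKR1B10 in each of the 12 groups (x axis), with 1 point per array, short lines for group means and shaded groups that received CHX. The 4 probes move together array by array, with pairwise correlations of 0.987 to 0.995, and in the CHX-then-CORT 1.5 h group they lie below all arrays of the CORT 1.5 h group.

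Across groups the HSPA8 probe had a mean of 1.00 ± 0.23 (SD, n = 4) after CORT for 1.5 h and -2.46 ± 0.93 (SD, n = 4) after CHX and CORT. In untreated cells it stood at 1.03 ± 0.86 and after CHX alone at -0.32 ± 1.63, both SDs over 4 arrays. Replicate 1 of the untreated group and replicate 2 of the CHX-alone group lay apart from the rest of their groups. The mean over the HSPA8 probes was -0.08 on the first of these arrays and 1.48 on the second, against 1.08 to 1.21 in the other untreated arrays and -1.24 to 0.06 in the other CHX-alone arrays. The calls of HSPA8 and AKR1B10 were lost without replicate 3 or 4 of the CHX-then-CORT group or replicate 1 or 3 of the CORT group, with adjusted p-values up to 0.164. That of MGEA5 was lost without replicate 3 of either group, with adjusted p-values up to 0.0949.

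Besides these, 3 named genes were lower. HN1 was read by 1 probe, whose profile correlated at 0.947 with the strongest HSPA8 probe, the next highest value after the 5 above 0.95. It fell from 0.97, 0.93, 1.09 and 0.85 in the CORT group to -0.90, 0.20, -1.18 and -0.02 with CHX, a log2 difference of -1.44 (SE 0.34, limma adjusted p = 0.0425). The CORT arrays lay within a narrow range and the CHX arrays did not. MTG1, a GTPase of mitochondrial ribosome assembly, fell by 0.88 (adjusted p = 0.0419). CCNYL1, a cyclin Y-like protein, fell by 0.54 (adjusted p = 0.0425), from 0.66, 0.86, 0.66 and 0.85 to 0.35, 0.16, 0.28 and 0.08. The HN1 and MTG1 calls held only without replicate 2 of the CHX-then-CORT group, and the CCNYL1 call only without replicate 1 of that group.

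The 20 probes without a gene name that passed (0.36% of 5563) were mostly higher too. Of these, 16 were higher, by 0.43 to 1.89 on the log2 scale, and 4 were lower, by -0.41 to -1.11.

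Lists of genes with labile transcripts were described next, beside the 0.426% of named genes that passed and the median of 0.02 over all features. Of the 101 list members and other genes named that did not pass, 38 moved by over 1.5 times in size, or turned in sign, without replicate 1 of the CHX-then-CORT group, and none of the 24 that passed did. The 24 were chosen for differences large against their SE, and small differences move easily on this scale. The contrast between the 2 counts therefore says nothing of how firm the 24 calls are. Of 13 members tested of a list of AP-1, EGR and other immediate-early transcription factors, JUN and ATF4 rose and none fell. Of the 13, 9 lay above 0 and the list median was 0.16. ATF4 is described above as a factor of amino acid shortage, is also counted in the amino acid response below, and had 1 probe at 0.18. EGR1, an immediate-early factor like JUN, differed by 0.33 (SE 0.18, adjusted p = 0.547), with -0.29, -0.16, 0.05 and 0.02 in the CORT group and -0.26, 0.29, 0.68 and 0.24 with CHX. Without replicate 1 of the CHX-then-CORT group the list median was 0.07. Of 19 MAP kinase phosphatases and feedback inhibitors, DUSP16 rose, 11 lay above 0 and the median was 0.03, which was 0.12 without all arrays of replicate number 2. With the replicate block DUSP10, another JNK and p38 phosphatase, passed as well (0.65, adjusted p = 0.0277, against 0.283 without the block).

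The 19 short-lived regulators of growth, survival and mRNA decay had a median of 0.09, with 14 above 0 and none past the threshold in limma (unadjusted p below 0.05 for 4 higher and 1 lower). The median was 0.15 without replicate 1 and 0.04 without replicate 2 of the CHX-then-CORT group. With the block 3 of them passed, against 1.62% of all named genes. MCL1, a labile anti-apoptotic protein of the BCL2 family, stood at -0.54, -0.34, -0.49 and -0.20 in the CORT group and at -0.16, 0.25, 0.36 and 0.26 with CHX. Its log2 difference was 0.58 (SE 0.16, adjusted p = 0.0853, and 0.0202 with the block). ARRDC3, an arrestin-domain protein, differed by 0.57 (adjusted p = 0.0521, and 0.0238 with the block). RHOB, a small GTPase encoded by an immediate-early gene, differed by 0.50 (adjusted p = 0.0535, and 0.00973 with the block). For all 3 the groups of arrays did not overlap, as for 5.09% of all features. In the whole list 4 members did not overlap, 3 of them higher and 1 lower. AMD1, an enzyme of polyamine synthesis, differed by 0.38 (adjusted p = 0.388).

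The 5 helix-loop-helix repressors of the ID and Hairy families had a median of 0.18, 3 above 0, and none passed. The median was 0.29 without replicate 2 of the CHX-then-CORT group. ID3 differed by 0.54 (SE 0.21, adjusted p = 0.325), HES4 by 0.37 (adjusted p = 0.318), ID4 by 0.18 (adjusted p = 0.617) and HEY1 by -0.61 (adjusted p = 0.477). Of 16 NF-kB factors and cytokines, NFKBIA rose, 10 lay above 0 and the median was 0.08. That median was -0.04 without replicate 1 of the CHX-then-CORT group. The NF-kB subunit NFKB1 itself differed by -0.30 (adjusted p = 0.81).

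Lists of the translation apparatus had medians below that of all features, and no member passed without the block. Of 43 cytosolic ribosomal protein genes 34 lay below 0 and the median difference was -0.20, with an unadjusted p below 0.05 for 4 lower and 0 higher. RPS24, a protein of the small ribosomal subunit, had log2 ratios of 0.59, 0.23, 0.77 and 0.84 in the CORT group and of -0.20, -0.13, -0.64 and 0.58 with CHX. Its difference was -0.70 (SE 0.31, adjusted p = 0.393). RPL21 (-0.46), RPS3A (-0.46) and RPS6 (-0.42) had adjusted p-values of 0.404, 0.716 and 0.718. The mean over the list ranged from -0.03 to 0.24 across the CORT arrays and from -0.32 to 0.26 across the CHX-then-CORT arrays, so that the groups overlapped. Without replicate 1 of the CHX-then-CORT group the median was -0.07.

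Of 44 translation initiation and elongation factors 27 lay below 0, with a median of -0.09 that was 0.02 without the same array. At an unadjusted p below 0.05 there were 4 lower and 3 higher. EEF1D (-0.65), EIF6 (-0.60) and EIF4E, the cap-binding factor (-0.52), had adjusted p-values of 0.423, 0.379 and 0.624. For EIF6 replicate 2 of the CORT group was missing, as it was for TAF1D below. EIF5A2, a factor that relieves stalled ribosomes, differed by -0.56 (adjusted p = 0.297, and 0.0287 with the block). Of 36 genes of ribosome biogenesis and RNA polymerase I, 24 lay above 0, with a median of 0.08, none past the threshold, and an unadjusted p below 0.05 for 4 higher and 0 lower. TAF1D, a subunit of the RNA polymerase I selectivity factor, differed by 1.01 (SE 0.36, adjusted p = 0.264), NOP56 by 0.55 (adjusted p = 0.667), NOC3L by 0.53 (adjusted p = 0.298) and MRTO4 by -0.36 (adjusted p = 0.684).

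Splicing and decay factors were spread around 0. Of 29 SR proteins, hnRNPs and splicing regulators 17 lay above 0, with a median of 0.05 and none past the threshold. PTBP2, the neuronal polypyrimidine tract-binding protein, went from -0.60, -0.10, -1.37 and -0.34 in the CORT group to 0.11, 0.86, 0.42 and 0.32 with CHX. The groups did not overlap, and the log2 difference was 1.03 (SE 0.30, adjusted p = 0.117). RBM3, a cold-inducible RNA-binding protein, differed by -0.68 (adjusted p = 0.374), HNRNPD, with 1 array missing, by 0.38 (adjusted p = 0.468) and PTBP1 by 0.30 (adjusted p = 0.523). Of 9 factors of nonsense-mediated decay, the pathway that removes transcripts with early stop codons during translation, 5 lay above 0 and the median was 0.14. That median was -0.03 without replicate 2 of the CHX-then-CORT group and 0.01 without all arrays of replicate number 2. SMG1, the kinase of that pathway, differed by -0.56 (adjusted p = 0.271), CASC3 by -0.31 (adjusted p = 0.808), UPF2 by 0.28 (adjusted p = 0.419) and the helicase UPF1 by 0.21 (adjusted p = 0.821).

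The lists of tubulin and histone genes had no member past the threshold. The 6 tubulins had a median of -0.25, with TUBB3 at -0.65 (adjusted p = 0.748), TUBB4B at -0.41 (adjusted p = 0.758), TUBA1A at -0.34 (adjusted p = 0.464) and TUBG1 at 0.19 (adjusted p = 0.624). The 6 histone genes had a median of -0.17, with 5 below 0. H3F3B stood at 0.66 (SE 0.42, adjusted p = 0.624), H1F0, with 1 array missing, at -0.38 (adjusted p = 0.535), H2AFZ at -0.37 (adjusted p = 0.836) and H2AFY at -0.19 (adjusted p = 0.747).

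Chaperones were described with HSPA8. Of 27 cytosolic and mitochondrial heat shock proteins HSPA8 fell, none rose, 18 lay below 0 and the median was -0.07, which was 0.00 without replicate 1 of the CHX-then-CORT group. DNAJA1, a J-domain co-chaperone of Hsc70, had values of 0.65, 0.43, 0.80 and 0.65 in the CORT group and of -0.47, -0.16, -0.71 and -0.22 with CHX. Its log2 difference was -1.02 (SE 0.28, adjusted p = 0.0838, and 0.0109 with the block). Of 34 endoplasmic reticulum chaperones and unfolded protein response genes 26 lay below 0, with a median of -0.16, none past the threshold, and an unadjusted p below 0.05 for 1 higher and 1 lower. HSP90B1, the reticulum's HSP90, differed by -0.71 (adjusted p = 0.514), P4HB, a protein disulfide isomerase, by -0.67 (adjusted p = 0.568), RCN1 by -0.51 (adjusted p = 0.6) and ERN1, the stress sensor IRE1, by -0.50 (adjusted p = 0.76). Without replicate 1 of the CHX-then-CORT group the median of the list was -0.09.

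In metabolism, 15 of 19 cholesterol synthesis genes lay below 0, with a median of -0.06 and none past the threshold. MSMO1, the sterol methyl oxidase, differed by -0.77 (SE 0.31, adjusted p = 0.339, and 0.0493 with the block), and SQLE, squalene epoxidase, by -0.46 (adjusted p = 0.143, and 0.0399 with the block). GGPS1 differed by 0.42 (adjusted p = 0.262) and FDPS by -0.29 (adjusted p = 0.853). In the amino acid response, ATF4 rose and none of the other 26 of 27 members passed, with a median of 0.03. It was -0.01 without replicate 4 of the CHX-then-CORT group and -0.01 without replicate 1 of the CORT group. ASNS, asparagine synthetase and a known ATF4 target, differed by -0.14 (adjusted p = 0.9). Oxidative phosphorylation (37 genes, median -0.01) and the proteasome (26 genes, median 0.00) had no member past the threshold. ATP5F1AW (-0.49), NDUFA9 (-0.46), UQCRFS1 (0.42) and ATP5C1 (-0.41), and PSMA1 (-0.46), PSMB2 (-0.39), PSMD14 (0.28) and PSMA4 (0.27), were their members of largest difference. With replicate 1 of the CHX-then-CORT group left out ATP5F1AW stood at -0.18, PSMA1 at -0.20 and PSMB2 at -0.15.

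Cell division and the clock had no member past the threshold either. The 22 replication genes had a median of -0.04, the 17 mitosis genes one of 0.01 and the 10 clock genes one of 0.09. These were, with replicate 1 of the CHX-then-CORT group left out, 0.00, -0.08 and 0.04, and with the probe of most values per gene the clock median was -0.01. The mitosis median was 0.08 without replicate 4 of the CHX-then-CORT group and -0.06 without replicate 3 of the CORT group. RRM2, a subunit of ribonucleotide reductase, differed by -0.62 (adjusted p = 0.615), ORC1 by -0.40 (adjusted p = 0.651) and MCM2 by 0.36 (adjusted p = 0.582). GINS3, a subunit of the replicative helicase complex, went from 0.14, 0.11, 0.25 and 0.21 to -0.30, -0.17, -0.31 and -0.23. This was a small and even difference of -0.43 (SE 0.11, adjusted p = 0.0521, and 0.00494 with the block). MAD2L1 (-0.47), SMC2 (-0.43), CENPE (0.36) and BUB3 (-0.34) led the mitosis list, and NOCT (0.21), CRY1 (-0.20), PER2 (0.16) and BHLHE40 (0.13) the clock list.

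Pituitary genes did not pass the threshold at this time. Of 16 hormone and secretory granule genes 12 lay below 0, with a median of -0.09 and an unadjusted p below 0.05 for 1 higher and 1 lower. Chromogranin A (CHGA) differed by -0.52 (SE 0.37, adjusted p = 0.677), the prohormone convertase PCSK1 by -0.40 (adjusted p = 0.468), the thyrotropin subunit TSHB by -0.39 (adjusted p = 0.694) and the carboxypeptidase CPE by -0.37 (adjusted p = 0.668). The mean of the list ranged from 0.01 to 0.21 in the CORT arrays and from -0.07 to 0.02 in the CHX-then-CORT arrays. Without replicate 1 of the CHX-then-CORT group its median was -0.20. The 6 pituitary transcription factors had a median of -0.08, with POU1F1 at -0.31 (adjusted p = 0.448), NEUROD1 at 0.27 (adjusted p = 0.723), and NR5A1 and ISL1 at -0.12 each (adjusted p = 0.817 and 0.738).

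Markers of other cell types had no member past the threshold in any of 6 lists, and at an unadjusted p below 0.05 there were 2 neural markers higher and 1 immune marker lower. Medians were 0.01 for 18 fibroblast and matrix markers, 0.07 for 7 red blood cell markers, -0.01 for 12 neuron and glia markers, 0.06 for 11 endothelial markers, -0.03 for 9 immune markers and 0.03 for 11 cartilage and muscle markers. They were, with replicate 1 of the CHX-then-CORT group left out, 0.06, 0.05, -0.01, -0.01, -0.11 and -0.05 in the same order. The means of each list overlapped between the groups of arrays. For endothelial markers they ranged from -0.21 to -0.14 in the CORT arrays and from -0.25 to 0.21 with CHX, and for red blood cell markers from -0.14 to -0.02 and from -0.20 to 0.27. Their part in the results above was not tested. Members of largest difference were LUM (0.39), COL5A1 (0.36), COL5A2 (-0.34) and MMP2 (-0.31) among matrix genes, SLC4A1 (0.29), HBA1 (0.21), CA2 (0.09) and FECH (0.07) among red cell genes, and TUBB3, OLIG2 (0.45), NEFH (0.34) and GFAP (-0.17) among neural genes. In the remaining lists they were LMO2 (0.21), VWF (0.18), KDR (0.16) and TIE1 (0.13), then B2M (-0.39), CSF1R (-0.25), LAPTM5 (-0.14) and JCHAIN (0.12), and ACTA1 (-0.37), MYL1 (0.28), CHAD (-0.19) and COL9A1 (0.14, with 1 array missing).

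**Figure D3:**
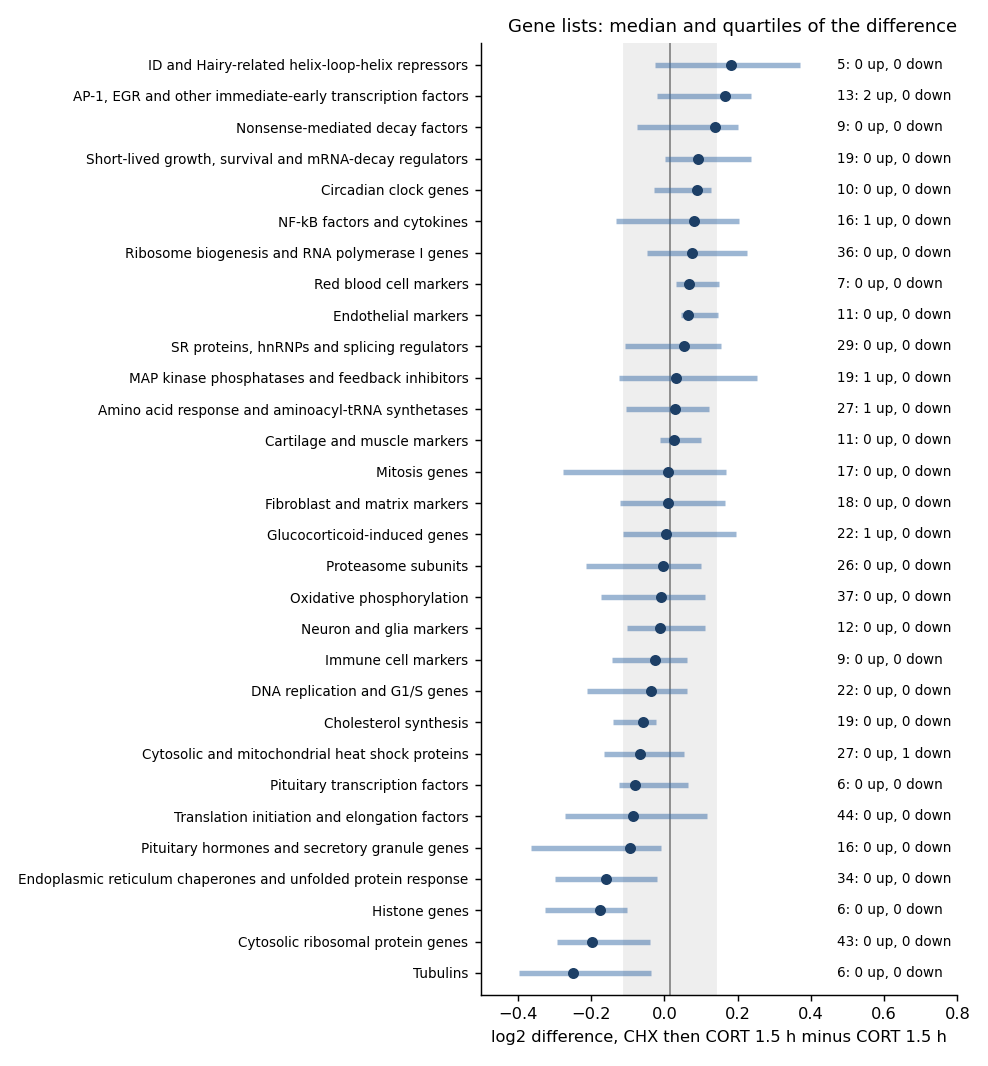
Median (point) and quartiles (bar) of the log2 difference, CHX then CORT 1.5 h minus CORT 1.5 h (x axis), for the members tested of each of 30 gene lists (y axis), with the number tested and the numbers past the threshold at the right. The grey band spans the quartiles of all 11195 features (-0.11 to 0.14) and the grey line their median of 0.02.

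The comparison also bears on the glucocorticoid response. Of 22 glucocorticoid-induced genes tested NFKBIA rose and no other passed, with a median of 0.01 and 11 above 0. This list, like the others, was chosen with earlier results of these data known. Any member picked for a high value after CORT would lean lower in this comparison. FKBP5, the co-chaperone that limits glucocorticoid receptor activity, stood at -0.33, -0.25, -0.65 and -0.16 in the CORT group and at -0.47, -0.43, -0.14 and -0.41 with CHX. The groups overlapped, and the difference of -0.01 had a 95% confidence interval of -0.42 to 0.40. Its sign turned when single arrays were left out. For FKBP5, CORT was 0.65 ± 0.20 (log2, SE) above untreated cells without CHX and 0.64 ± 0.20 above CHX alone after it, values that share arrays with the present comparison. Both are given without an adjusted p and are not counted as responses past the threshold. RASL10A, described below, had a larger CORT difference without CHX and did not pass. PDK4, a kinase that limits pyruvate oxidation, differed by 0.28 (95% confidence interval -0.04 to 0.60, adjusted p = 0.566), and RASD1, a dexamethasone-induced Ras-family GTPase, by 0.12 (95% confidence interval -0.36 to 0.60, adjusted p = 0.934). RASD1 turned in sign without replicate 3 (-0.07) or replicate 4 (-0.01) of the CHX-then-CORT group.

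The lowest member of the list was RASL10A, a small GTPase of the Ras superfamily, which is named here after its values were seen. It stood at 0.14, -0.27, 0.54 and 0.23 in the CORT group and at -0.66, -0.80, -0.92 and -0.39 with CHX, with no overlap. The log2 difference was -0.85 (95% confidence interval -1.43 to -0.28) and did not pass in limma (adjusted p = 0.205, and 0.0744 with the replicate block). RASL10A was 1.24 above untreated cells after CORT (adjusted p = 0.434) and 0.17 above CHX alone after CHX and CORT, values that share arrays with this comparison. Its interaction was -1.07 (95% confidence interval -1.88 to -0.25), which did not pass either (adjusted p rounded to 1).

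CHX alone gave differences of the same direction for most of the 24 named genes. This comparison, CHX alone against untreated cells, shares no array with that at 1.5 h of CORT. Only 2 features passed in it (0.0179%), RHOB and DUSP7. Of the 24 named genes 23 had the same direction there, against 58.6% of all features, and none passed. HSPA8, MGEA5, SYDE2 and AKR1B10, of nearly the same profile, are each counted in that number. In size 23 were smaller, which the choice of these genes by the 1.5 h comparison favours. The share that were smaller was not counted over all features. The exception in direction was CCNYL1 (0.11 after CHX alone). JUN was about as high, with a log2 difference of 1.51 (SE 0.31, adjusted p = 0.0706) from -0.99, -0.71, -0.10 and -0.69 in untreated cells to 0.56, 0.97, 0.93 and 1.12 after CHX alone. The median over the 17 higher genes was 0.65 with CORT and 0.21 without it, and over the 7 lower genes -1.69 and -0.56, values that the choice of genes by the first comparison sets apart.

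Whether the 2 differences differ was tested by their interaction. No feature passed (0%), 344 had an unadjusted p below 0.05 (3.07%), and the smallest adjusted p rounded to 1. The interaction was -0.04 on the log2 scale for JUN (95% confidence interval -0.93 to 0.85), 0.37 for NFKBIA (-0.42 to 1.16), 0.19 for ATF4 (-0.36 to 0.74) and -1.38 for HSPA8 (-2.83 to 0.07). The 5 named genes of smallest unadjusted interaction p were CCNYL1 (-0.65), DUSP7 (-0.39), PARK2 (0.48), MCTP1 (0.61) and ANKRD46 (0.47). DUSP7, a phosphatase of ERK kinases, differed by 0.47 after CHX alone (adjusted p = 0.0137) and by 0.08 at 1.5 h of CORT (adjusted p = 0.817). The cells given CHX alone had 1.5 h of CHX and no further treatment, so that this contrast does not separate CORT from the longer time under treatment either.

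**Figure D4:**
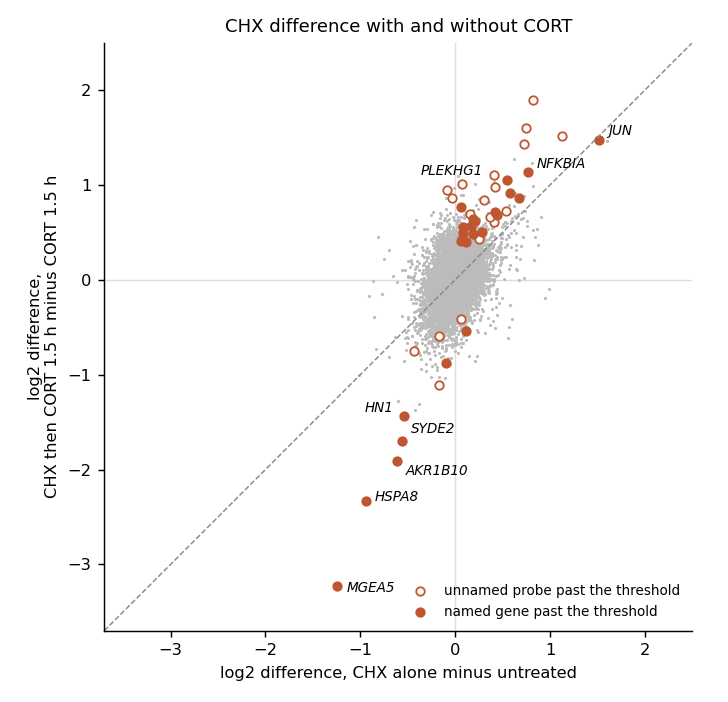
Log2 difference made by CHX without CORT (x axis, CHX alone minus untreated) against that at 1.5 h of CORT (y axis) for 11195 features, with grey points for features that did not pass, filled red points for the 24 named genes and open red points for the 20 unnamed probes that passed at 1.5 h of CORT, and a dashed line of equality. JUN lies near the line (1.51 and 1.47), and HSPA8 lies below it (-0.95 and -2.33).

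The same genes were followed at the later times of CORT, on other arrays but in the same fit. That fit gives each feature an estimate of spread that all times share. Genes that passed at 1.5 h in part for a small spread are therefore favoured to pass at other times. The shares of all features that passed take no account of this. Of the 24, 24 had the same direction at 3 h, 24 at 6 h, 22 at 12 h and 22 at 24 h, against 71.7%, 57.1%, 55.6% and 60.7% of all features. The number that also passed in that direction was 9 at 3 h (0.161% of all features passed), 20 at 6 h (3.92%), 9 at 12 h (1.41%) and 11 at 24 h (4.98%). Those that passed at 6, 12 and 24 h include HSPA8, MGEA5, SYDE2 and AKR1B10, whose strongest probes had nearly the same profile. HN1, of a similar profile, is among them too. These names are not separate observations, in the counts of direction as well. TRIM35 and CCNYL1 had the opposite direction at 12 h and 24 h. NFKBIA passed at each time from 1.5 h on, with log2 differences of 0.77, 1.14, 1.51, 2.30, 1.80 and 1.39 at 0, 1.5, 3, 6, 12 and 24 h of CORT. CPSF4 also passed at all times from 1.5 h on, with 0.71, 0.84, 0.99, 0.88 and 0.90. JUN gave 1.51, 1.47, 1.12, 1.28, 0.56 and 0.85 over the 6 times and passed at 1.5 h and 6 h. HSPA8 gave -0.95, -2.33, -1.94, -2.54, -2.06 and -1.88 and passed at 1.5, 6, 12 and 24 h. DUSP16 differed by 1.33 at 6 h and by 0.12 at 24 h. Differences between times were not tested for these genes, other than the interaction above.

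**Figure D5:**
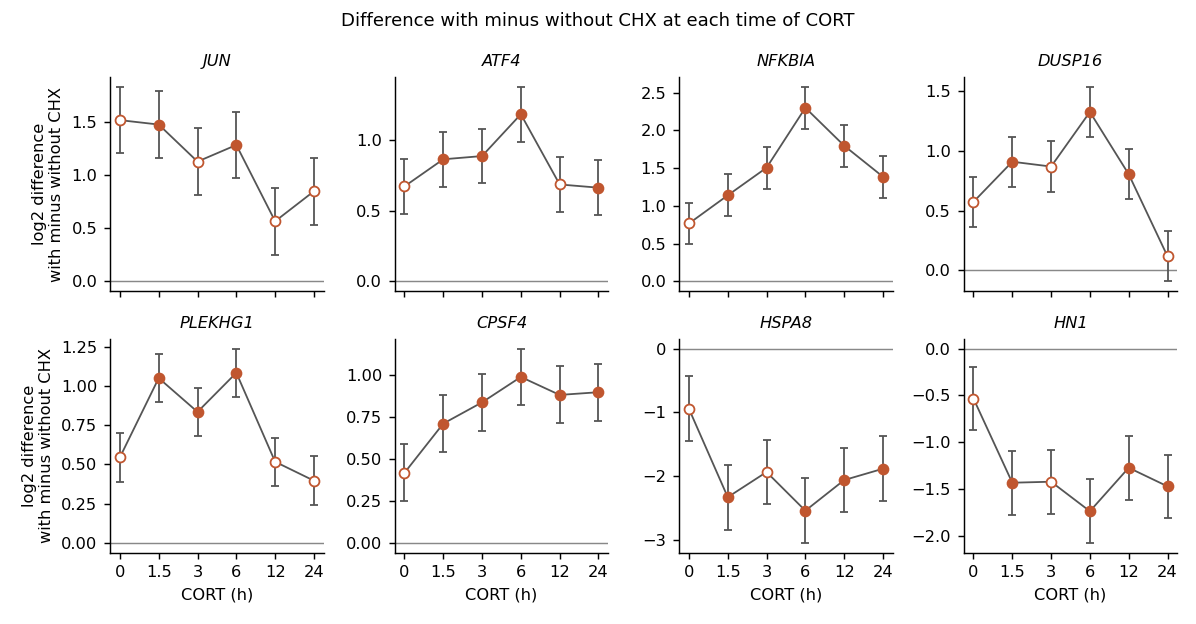
Log2 difference with minus without CHX (y axis, scale set per panel) at each time of CORT (x axis, h, not to scale) for 8 of the named genes, with bars for the SE of the fit, filled points where the adjusted p was below 0.05 and open points elsewhere. Each difference rests on the 8 arrays of its time, and each SE on a spread shared by all groups. NFKBIA lies at 2.30 at 6 h and 0.77 at 0 h, and HSPA8 lies between -2.54 and -1.88 from 1.5 h on and at -0.95 at 0 h.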

How the data were processed

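RNA from chicken pituitary cells was amplified, labelled with Cy3 and hybridised against a Cy5 pool, per the labels' protocols. The labels speak of 16 slides for 48 samples, which was not resolved. The deposited values are 1 log2 ratio per probe and array, made by the authors. Background correction, normalisation and software are not given in the sources used here. Array medians of the deposited log2 ratios lie near 0 and array SDs are nearly equal. Whether they were centred or scaled is not stated, and either step would change the size of a difference. Base 2 is an inference from their range. No spot intensities were used, and the number of arrays limits precision.

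Exact zeros were taken as missing. Of 19200 probes, 10601 had a single gene symbol, none had several and 8599 had none. Identifiers of 10455 were found among the RefSeq genes of assembly GRCg7b, and 146 kept the older symbol. Probes of 1 symbol were averaged. Features needed a value on at least 3 of 4 arrays in each of 12 groups, which left 11195 of 15027 (5632 named of 6428, and 5563 unnamed) with 0.866% of values missing. Where a value was missing, the fit used the remaining arrays.

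limma 3.58.1 (lmFit, then eBayes) fitted a mean per group over all 48 arrays with 36 residual degrees of freedom, under R 4.3.3 and the data.table package (1.17.8), with two-sided tests and Benjamini-Hochberg adjustment over all features at 0.05. The script was tested on simulated data. Each error marked SE, and each 95% interval, comes from this fit. Genes named are all named genes past the threshold, the called members of each list or else its 4 members of largest difference, the 5 named genes of smallest interaction p, and FKBP5, PDK4 and RASD1. Other genes named, such as EGR1, MCL1, RHOB, DNAJA1, GINS3 and RASL10A, were picked after their values were seen. The comparison and the 30 lists were chosen with earlier results of these data known. A search of promoters was planned and not run, since no sequence was used.

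Replicate numbers are shared between groups in the titles. Deviations from the group means correlated at 0.494, 0.154, 0.107 and 0.524 between the same-numbered arrays of the 2 groups (numbers 1 to 4). All lay above 0.1, but for number 3 the best match was number 4. Between CHX alone and untreated cells the same-numbered values were 0.866, 0.246, -0.0963 and 0.566. Over all groups the median correlation was 0.441 for same-numbered arrays (264 pairs, 194 of them above 0.1) and -0.103 for arrays of other numbers. Arrays of 1 number therefore shared part of their values over the series, less evenly so in the 1.5 h comparison. The number entered only the fit with the replicate block. The main fit held no term for the number, so its counts, SEs, intervals and p-values take no account of pairing. What the numbers share is not stated. Alternatives were the replicate block, other arrays in the fit, scalings, array weights, filters, probe choice, and leaving out arrays.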

Additional observations from a re-analysis of the deposited data

Results flagged for a closer look

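Of 250 groups of 4 arrays checked (125 named genes in the 2 groups), 15 held 1 array whose gap to the nearest other, as a share of the group's range, was above Dixon's 95% critical value for 4 samples. The shares of the 15 ran from 0.840 to 0.967. By the construction of that test, chance gives such a gap in about 1 in 20 groups. Of the 15, 5 concern replicate 1, 2 replicate 3 and 1 replicate 2 of the CHX-then-CORT group, and 4 concern replicate 3 and 3 replicate 1 of the CORT group. Their cause was not tested.

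In the CHX-then-CORT group, replicate 1 lay apart for JUN (-0.14), MRTO4 (-0.76), SQLE (0.0788), CRY1 (-0.55) and CSF1R (0.29). Replicate 3 of that group lay apart for STX10 (0.55) and HSPA8 (-2.67), and replicate 2 for B2M (0.20). In the CORT group, replicate 3 lay apart for JUN (-1.25), NFKBIA (-1.43), EIF5A2 (0.72) and RASD1 (0.63), and replicate 1 for PSMA1 (-0.0660), RRM2 (0.0307) and POU1F1 (0.0531). All values are log2 ratios to the pool.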

How the results depend on the processing

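The count of 44 features that passed became 6 with only the 8 arrays in the fit (1 higher and 5 lower), 186 with the replicate block, 26 after quantile normalization, 18 with array medians and MADs made equal, and 201 with array weights. Equal medians and MADs ended the calls of JUN, ATF4, NFKBIA, DUSP16, HSPA8, AKR1B10 and HN1, among others. Quantile normalization ended those of NFKBIA, DUSP16 and HN1, among others. The calls of PLEKHG1, SYDE2 and MGEA5 held under both scalings. Leaving out single arrays gave 2 to 58, and leaving out all arrays of 1 replicate number 1 to 19. Without number 3, the 1 feature that passed was none of the 44. Without replicate 2 of the CHX-then-CORT group the 43 features that passed split into 24 higher and 19 lower. Robust moderation, other filters and zeros kept gave 43 to 44, and the probe with most values 34. With every probe kept singly, chosen after seeing the data, 55 of 14062 probes passed. For the interaction 0 features passed with the replicate block and under the other settings, and with arrays left out the count was 0 to 1, the 1 being without replicate number 3 (limma adjusted p = 0.0428). The causes were not tested. The list members that newly passed with the block are given with their lists, and it ended no call among the 44. Small differences changed sign. FKBP5 was 0.0153 with array weights, 0.0358 with the probe of most values and -0.190 to 0.0641 with arrays left out. With the probe of most values MED16 was -0.0244, BHLHE40 -0.0104 and GFAP 0.285, and the second NCKIPSD probe gave -0.345. With arrays left out, singly or by number, RASD1 ranged from -0.0730 to 0.283, H1F0 from -0.569 to 0.0326, BHLHE40 from -0.0132 to 0.215, FECH from -0.0383 to 0.151, TIE1 from -0.00860 to 0.247, LMO2 from -0.0183 to 0.308 and JCHAIN from -0.0576 to 0.262.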
